A study of Mus musculus with 24 samples.

Results

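The interleukin-7 receptor and the cytokine receptors that share its gamma chain were followed here as 10 genes: Il7r, Il2rg, Il2ra, Il2rb, Il4ra, Il15ra, Il21r, the kinases Jak1 and Jak3, and Flt3. Every non-control probe whose gene name in the array files is one of these symbols was taken, which gave 15 of 55681 probes and 10 of the 34844 names on the array. Il4ra, Il15ra and Jak3 had 2 probes each, Flt3 had 3 and the other genes had 1. All 15 passed the filter on dim probes, which 52987 probes (95.2%) passed.

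In the receptors of this family the common gamma chain encoded by Il2rg joins further chains, some of which are shared between cytokines. Jak1 is bound by a chain other than the gamma chain and Jak3 by the gamma chain, and together they phosphorylate STAT5 and other STATs. Signals from IL-7 sustain early thymocytes and fetal B cell precursors, and Il7r is known to be turned off at the double-positive stage and back on in single-positive thymocytes. Flt3 is a receptor tyrosine kinase of lymphoid progenitors and lies outside the family.

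The study placed 24 sorted mouse cell samples on 1 single-colour Cy3 array each, in 8 groups. Thymocytes of Foxn1 heterozygous (+/-) mice, labelled wt, were double-negative stage 3 (DN3, n = 3), CD4/CD8 double-positive (wt DP, n = 3), CD4 single-positive (SP4, n = 3) and CD8 single-positive (SP8, n = 3). Double-positive cells (tg DP, n = 4) and IgM-negative B cells (tg B IgM-, n = 2) came from transgenic thymus of Foxn1-deficient (-/-) mice. Foxn1 is the transcription factor that thymic epithelium needs to become a niche for T cells. The other B cells were taken from the liver of wild-type fetuses, split into IgM-negative (FL B IgM-, n = 3) and IgM-positive (FL B IgM+, n = 3) cells. The labels used here name neither the transgenes, nor their promoters, nor the ages of the mice, and SP8 appears beside SP4 in 1 label of the SP4 samples, which were assigned by their titles. Replicates are called by the numbers in their titles. wt DP has 3 and 3A, and tg DP has 6 beside 6A and 6B, and nothing says whether these came from separate animals. The p-values therefore measure only how far these samples spread, which may be technical. The RNA of the lysed cells was amplified by PCR through tagged primers before labelling.

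Levels are log2 of the processed spot signal minus the array's 75th percentile, so 0 is a bright probe and negative values are dimmer. A probe counts as detected where the scanner software marked it well above background. Levels of different genes are not ranked against each other, since probes differ in brightness. Between 80.6% and 96.7% of probes were detected on an array. tg B IgM- 23, FL B IgM+ 21 and tg DP 4 had the highest values on the first principal component (310.1, 165.5 and 69.9, against -86.9 in SP8 13 to 36.6 in the others). Where leaving these 3 out changed any of the 32 differences followed over the settings by over 1.5 times, a second value is given. The remaining differences were not all followed in this way. Where 1 tg B array is left out, the error of the remaining one is borrowed from the other groups. The arrays lay on 4 slides. No slide held both wt DP and SP4 or SP8, or both DN3 and FL B IgM- cells.

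The labelled cell types were checked on marker genes. Cd3e, a chain of the T cell receptor complex, had group means of 0.52 to 0.65 in the thymocyte groups and 0.69 to 0.90 in the B cell groups. Cd4 had means between 3.46 and 3.85 in all 8 groups. Among stage markers, Cd8b1 had a mean of -2.07 in SP4 and -3.50 in SP8, Cd8a -0.88 and -0.90, and Zbtb7b 4.76 and 4.75. Ptcra was 2.64 in DN3, against 2.66 and 2.67 in the fetal liver B cells. Notch3 was -0.46 in DN3, against -1.23 to -0.76 in the other thymocyte groups. Rag1 was -2.11 in wt DP, -3.72 in SP4 and -2.88 in SP8. These probes set the thymocyte stages apart only in part, and did not tell SP4 from SP8 as labelled. Cd8b1 lay higher in SP4, against the labels, as did Runx3, a regulator of the CD8 lineage (1.76 in SP4 and 1.57 in SP8). Cd8a and Zbtb7b were nearly equal. Cd4 was 3.63 in SP4 and 3.46 in SP8, but every B cell group lay above both. Cd79a, a chain of the B cell receptor, had a mean of 0.40 in FL B IgM-, -0.67 in FL B IgM+ and -3.22 in tg B IgM-, against -2.32 to -1.09 in the thymocyte groups. Over 9 measured T lineage markers, the mean level of an array ranged from -0.90 to 0.38 in thymocytes and from -1.32 to -0.82 in fetal liver B cells. Over 9 B lineage markers it ranged from -1.61 to -0.24 in fetal liver B cells and from -1.69 to -0.89 in thymocytes. The 2 tg B arrays gave -1.62 and -1.11 on the B lineage markers, both within the thymocyte range. On the T lineage markers they gave -1.23 and -1.07, both within the fetal liver range. Tcf7, a T cell transcription factor, had group means of -2.32 to 0.86 in thymocytes and -5.26 to -4.17 in B cells, and Cd3d, another chain of the receptor complex, -1.74 to -0.67 and -3.53 to -2.60. Of the 9 T lineage genes, Tcf7, Cd3d and Bcl11b had every thymocyte mean above every B cell mean, and of the 9 B lineage genes only Pax5 had the reverse. The part of other cells in the results was not tested.

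No member probe passed a Benjamini-Hochberg adjusted p of 0.05 in limma in any of the 11 comparisons. In the F test over the 8 groups, 0 of 15 passed against 0.102% of all probes, and 5 of 15 had an unadjusted p under 0.05 against 12.8%. Those 5 were Il2rg (adjusted p = 0.102), Il21r (0.290), Il2ra (0.300), Il7r (0.350) and Il15ra probe A_55_P2041738 (0.387). Single comparisons called few probes of the array: 0.034% in tg B minus FL B IgM-, 0.0321% in wt thymocytes minus fetal liver B cells, 0.00566% in the tg interaction described below, and 0% in the other 7. Of all probes, 0.685% had a smaller F test p than Il2rg.

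Il7r encodes the chain that binds IL-7 and is measured by probe A_51_P196695, mm9 chr15:9435976-9436035 on the minus strand. Il2rg is measured by A_66_P113749, mm9 chrX:98460130-98460189 on the minus strand. The first 30 bases of each are shown because these probes had the widest ranges among the members.
A_51_P196695 (Il7r): atcaatcaactatgtttggatccagggaat
A_66_P113749 (Il2rg): catcaatcctttgatggaacctcaaagtcc

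The Il7r level was -2.30, -3.80 and -3.33 in SP4 and -3.78, -3.32 and -3.25 in SP8. It was -3.97, -7.11 and -6.54 in wt DP, and -6.42, -7.74, -4.86 and -7.55 in tg DP. Every single-positive array lay above every wt DP array. DN3 gave -2.95, -4.42 and -6.77. The IgM-negative fetal liver B cells gave -5.93, -3.68 and -3.52 and the IgM-positive cells -1.71, -5.77 and -3.78. The tg B cells gave -5.37 and -5.65. In such bulk samples, fewer cells of a type and less RNA per cell cannot be told apart. DN3 and both fetal liver groups each held arrays as low as wt DP and arrays as high as SP8.

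Il7r was detected on 3 of 3 SP4 and 3 of 3 SP8 arrays, on 2 of 3 in DN3, FL B IgM- and FL B IgM+, on 1 of 3 wt DP, on 1 of 4 tg DP and on 0 of 2 tg B arrays. The means ran in the order SP4, SP8, FL B IgM+, FL B IgM-, DN3, tg B, wt DP and tg DP, and each group overlapped its neighbour in that order.

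**Figure D1:**
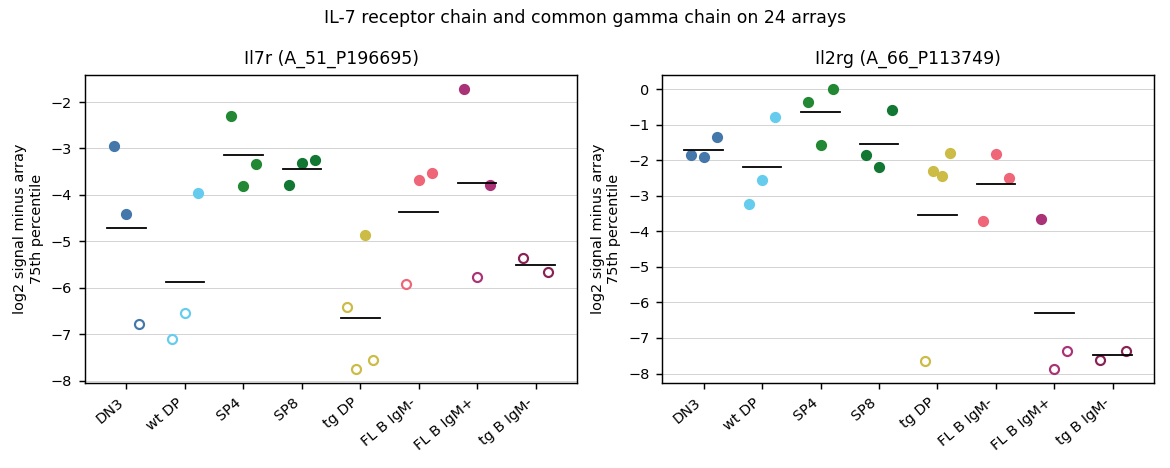
Level of Il7r (left) and Il2rg (right) on each of 24 arrays by group, as log2 signal minus the array's 75th percentile. Filled points were well above background, open points were not, and lines are group means. The 6 SP4 and SP8 arrays lie between -3.80 and -2.30 for Il7r, all above the wt DP arrays. For Il2rg both tg B arrays lie under -7.

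SP4 exceeded wt DP in Il7r by 2.73 ± 1.09 (log2, SE), 6.64-fold, with an unadjusted p of 0.0219 and a limma adjusted p of 0.714. SP8 exceeded wt DP by 2.42 ± 1.09, 5.36-fold, with an unadjusted p of 0.0391 and a limma adjusted p of 1 (rounded, as are later values of 1). Both thus missed the threshold, and both folds rest on wt DP values of which 2 of 3 were not above background. With slide as a block the differences were 3.89 and 3.71. With normexp background correction, which raises dim signals by an offset, they were 0.98 and 0.74.

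wt DP minus DN3 was -1.16 ± 1.09 for Il7r (limma adjusted p = 1), and on the slide that held both groups it was -2.92, with 1 DN3 array. With 1 array left out it ranged from -2.19 (without DN3 9, the dimmest DN3 array) to -0.28 (without DN3 7). tg DP minus wt DP was -0.77 ± 1.02 (limma adjusted p = 1) and turned to 0.18 without wt DP 3A. DN3 minus FL B IgM- was -0.34 ± 1.09, and wt thymocytes minus fetal liver B cells -0.23 ± 0.67 (limma adjusted p = 0.932). The sign of these last 2 differences turned under several settings, so no direction between T and B cells can be read for Il7r. On the slide that held 1 SP4 and 1 FL B IgM+ array, the thymocyte array minus the B cell array was -2.09. tg B minus FL B IgM- was -1.13 ± 1.22 (limma adjusted p = 0.649), with overlapping groups. It rests on dim signals, since 0 of 2 tg B and 2 of 3 FL B IgM- arrays detected the probe. With each tg B array taken no dimmer than its lowest detected signal, the tg B mean was lower by 0.85, ignoring the spread between arrays.

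Il2rg encodes the common gamma chain that the receptors of this family share. Its level was -1.86, -1.92 and -1.34 in DN3, -0.80, -3.24 and -2.56 in wt DP, -0.37, -1.56 and 0.02 in SP4, and -1.86, -2.18 and -0.59 in SP8. FL B IgM- gave -3.70, -1.83 and -2.50. All of these arrays detected the probe. tg DP gave -2.30, -2.45 and -1.78 beside an undetected -7.65. FL B IgM+ gave -3.66, -7.86 and -7.35, with the last 2 not above background, and tg B gave -7.62 and -7.36, neither above background. All 5 undetected arrays were thus in the transgenic thymus or in IgM-positive fetal liver B cells. The same 5 arrays had the highest values on the first principal component. They ran from 34.7 (tg B IgM- 22) to 310.1 (tg B IgM- 23), and the next array, SP8 15, had 16.6. The part of the cell group and of the array in the undetected values was not tested.

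tg B IgM- minus FL B IgM- was -4.81 ± 1.39 for Il2rg, with an unadjusted p of 0.00279 and a limma adjusted p of 0.145. The groups did not overlap. Since no tg B array detected the probe, the tg B mean is a bound. On this scale the mean was at least 5.85-fold (2.55 in log2) lower on the 2 tg B arrays than on the FL B IgM- arrays. That bound ignores the spread between arrays, and the difference missed the threshold. All 5 arrays lay on 1 slide. With slide as a block the difference kept its size and limma's adjusted p became 0.0367. Without the 3 arrays highest on the first component, which leaves 1 tg B array, it was -4.94. With normexp it was -1.36, smaller in size than the bound. The wider tg B profile shifted too: the median of all probes was -0.27 in this comparison, and 0.03 when arrays were scaled on their median. FL B IgM+ minus FL B IgM- was -3.61 ± 1.24 (limma adjusted p = 0.560), with a single touch between the groups, -3.66 against -3.70. It was -1.30 with normexp and -4.93 without FL B IgM+ 19, the one IgM-positive array that detected the probe and the one on another slide.

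For Il2rg, wt thymocytes minus fetal liver B cells was 2.96 ± 0.76 with a limma adjusted p of 0.137, and 2 of the 6 fetal liver arrays were not above background. Thymocyte arrays ranged from -3.24 to 0.02 and fetal liver arrays from -7.86 to -1.83, so the groups overlapped. Without FL B IgM+ 19 the difference was 3.62 and the limma adjusted p 0.0456. With normexp it was 1.54. On the single slide with both kinds, 1 SP4 array exceeded 1 FL B IgM+ array by 2.10. With slide as a fixed block the difference was -3.39 (limma adjusted p = 0.370). That fit links T and B cells through few shared arrays, so slide and cell type can hardly be told apart here. tg DP minus wt DP was -1.35 ± 1.16 for Il2rg (limma adjusted p = 1), and 0.02 without tg DP 4. SP4 minus wt DP was 1.56 ± 1.24 (limma adjusted p = 0.924), with overlapping groups, and 3.79 with slide as a block. The interaction, the tg minus wt difference in DP minus the tg minus FL difference in B cells, was 3.46 ± 1.81 for Il2rg (limma adjusted p = 0.580).

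Il2ra encodes CD25, the alpha chain of the IL-2 receptor and the surface marker by which DN3 cells are usually sorted. Its probe A_55_P1980796 (mm9 chr2:11614744-11614803, plus strand) was detected on all 24 arrays. DN3 arrays gave -3.28, -2.51 and -2.65 and wt DP arrays -3.12, -3.01 and -3.15. The groups overlapped, and wt DP minus DN3 was -0.28 ± 0.33 (95% interval -0.97 to 0.41, limma adjusted p = 1). That interval, not adjusted for the number of probes, reaches a DN3 excess of 0.97. Outside tg B the group means of this probe lay between -3.17 (SP8) and -2.77 (FL B IgM-). Whether the probe measures its gene was not tested. The tg B arrays were the highest of all, at -1.53 and -1.85, above FL B IgM- at -3.22, -2.41 and -2.66. That difference was 1.08 ± 0.37, with an unadjusted p of 0.00916 and a limma adjusted p of 0.183, and 1.24 without tg B 23. The interaction for Il2ra was -1.13 ± 0.48 (limma adjusted p = 0.504), as tg DP at -3.51, -3.06, -2.54 and -3.48 overlapped wt DP.

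Il2rb encodes the beta chain shared by the IL-2 and IL-15 receptors, and its probe is A_51_P286496 (mm9 chr15:78311109-78311168, minus strand). SP8 gave the highest mean, from -0.12, 0.61 and -0.09, and SP4 gave -0.42, -0.47 and -0.40. All SP8 arrays lay above all SP4 arrays. SP4 minus SP8 was -0.57 ± 0.28, with an unadjusted p of 0.0606 and a limma adjusted p of 0.968. SP8 minus wt DP was 0.51 ± 0.28 (limma adjusted p = 1), also without overlap. Without SP8 14, the brightest array, the differences were -0.33 and 0.28.

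Il21r encodes the receptor chain for IL-21, on probe A_55_P2071447 (mm9 chr7:132776725-132776784, plus strand). wt DP was the lowest group, at -1.73, -3.12 and -1.58. tg DP gave -0.90, -0.79, -0.93 and -0.93, SP4 gave -0.71, -1.18 and -1.10, and SP8 gave -1.10, -0.72 and -1.45. All of these lay above every wt DP array. tg DP minus wt DP was 1.26 ± 0.38, 2.39-fold, with an unadjusted p of 0.00415 and a limma adjusted p of 1, in a comparison where 0% of all probes were called. On the slide with 3 arrays of each, the difference was also 1.26. Without wt DP 2 it was 0.77. SP4 minus wt DP was 1.15 ± 0.41 (limma adjusted p = 0.654) and SP8 minus wt DP 1.06 ± 0.41 (limma adjusted p = 1). Without wt DP 2 these were 0.66 and 0.57. These 3 comparisons share the wt DP arrays, so they are not independent of each other. tg B gave -1.03 and 0.86, and tg B minus FL B IgM- was 1.04 ± 0.46 (limma adjusted p = 0.271). The value rests on 1 array: without tg B 22 it was 1.99, and without tg B 23 it was 0.10. The limma adjusted p without tg B 22, 0.00831, tests 1 array whose spread is taken from the other groups.

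**Figure D2:**
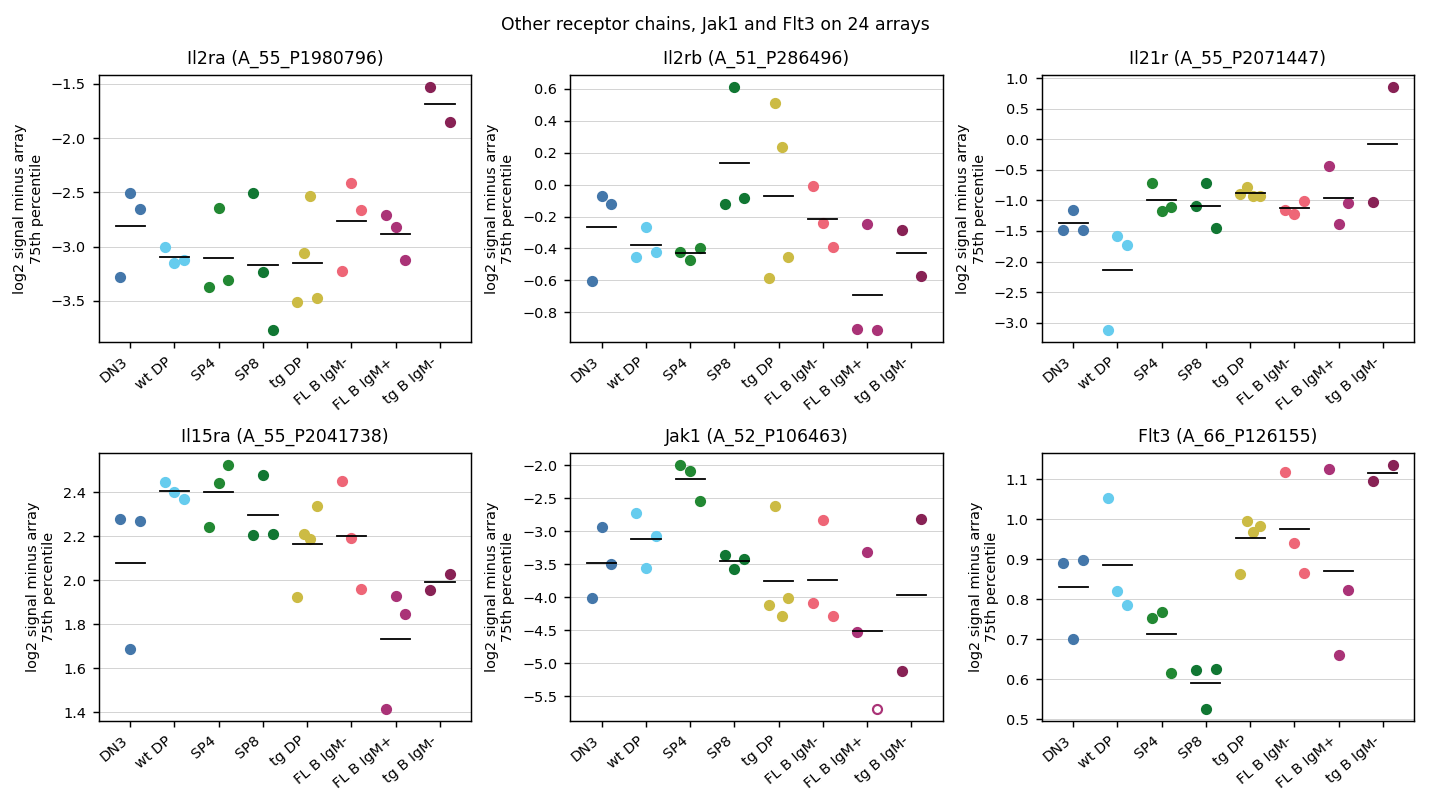
Level of Il2ra, Il2rb, Il21r, Il15ra probe A_55_P2041738, Jak1 and Flt3 probe A_66_P126155 on each of 24 arrays by group, as log2 signal minus the array's 75th percentile. Filled points were well above background, open points were not, and lines are group means. The panels have different axis ranges. wt DP is lowest for Il21r, SP4 is highest for Jak1, and tg B is highest for Il2ra.

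Il15ra encodes the high-affinity chain for IL-15 and Il4ra the chain shared by the IL-4 and IL-13 receptors. Each had 2 probes, and 1 probe of each carries a TG run. They are printed with the run in capitals, and the other Il15ra probe is shown to compare. A_55_P2060707 lies at mm9 chr2:11655416-11655475, and its bases 25 to 54 are shown, chr2:11655440-11655469. A_55_P1966189 lies at mm9 chr7:132712550-132712609 and A_55_P2041738 at mm9 chr2:11654809-11654868, all on the plus strand.
A_55_P1966189 (Il4ra): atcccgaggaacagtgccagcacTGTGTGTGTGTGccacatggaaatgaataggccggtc
A_55_P2060707 (Il15ra): atatgtaTGTGTGTGTGTGTGTGtatgtaa
A_55_P2041738 (Il15ra): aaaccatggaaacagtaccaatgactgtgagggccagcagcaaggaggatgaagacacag

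Il15ra A_55_P2060707, with 8 TG repeats in a row, had a mean level of 7.87 over the arrays, the 99.8th percentile of all probes. Il4ra A_55_P1966189, with 6, had a mean of 4.04, the 97.7th percentile. The second probe of Il4ra, A_55_P2017789, had a mean of -1.29 and the other Il15ra probe 2.17. Of all probes, 176 (0.316%) carry 5 or more TG in a row, and their median level was 7.74 against -1.68 for all probes. In the 71 probes with 8 or more the median was 8.59. The repeat-bearing probes also varied less, with a median within-group SD of 0.21 against 0.57 for all tested probes, but the sets were not matched for level. The Il4ra repeat probe had an SD of 0.15 against 0.43 for its other probe. For Il15ra it was the reverse, 0.27 against 0.21. Whether the 2 repeat-bearing member probes measure their gene was not tested, and values of the other probe are given for each gene below.

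**Figure D3:**
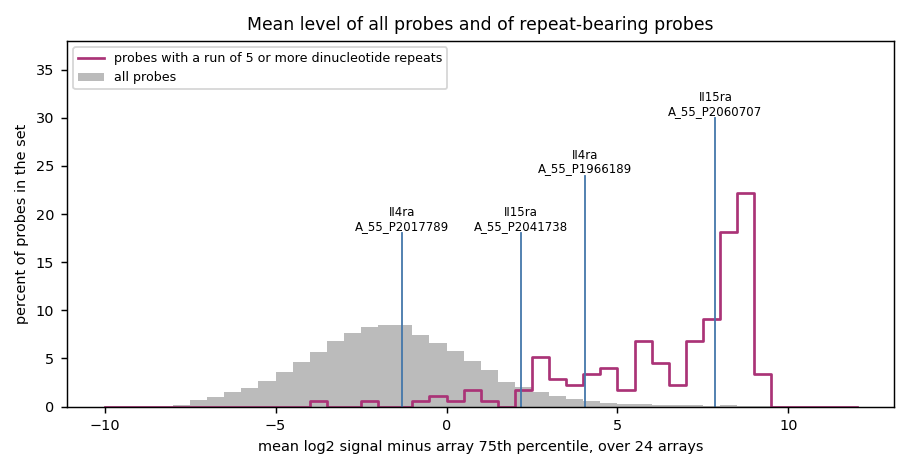
Mean level over 24 arrays of all probes (grey bars) and of the 176 probes with 5 or more TG in a row (red line), as percent of each set per 0.5 log2 units. Vertical lines mark the 2 Il4ra and 2 Il15ra probes. The repeat-bearing probes sit mostly above 5, with a median of 7.74.

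Il15ra A_55_P2041738 was 2.37, 2.45 and 2.40 in wt DP, 2.24, 2.44 and 2.52 in SP4, and 2.21, 2.48 and 2.21 in SP8. DN3 gave 2.28, 1.69 and 2.27, all below wt DP. FL B IgM+ was the lowest group, at 1.42, 1.93 and 1.85, below all FL B IgM- arrays at 2.45, 2.19 and 1.96. That difference was -0.47 ± 0.20 (limma adjusted p = 0.624), and -0.31 without FL B IgM+ 19. wt thymocytes minus fetal liver B cells was 0.33 ± 0.12 (limma adjusted p = 0.271). Il4ra A_55_P2017789 (mm9 chr7:132722922-132722981, plus strand) ranged from -2.27 to -0.43 over the arrays. It was -1.29 and -2.27 in tg B and -1.18, -0.95 and -1.07 in FL B IgM-, a difference of -0.71 ± 0.39 (limma adjusted p = 0.363). Most of that difference came from tg B 23, at -2.27, while tg B 22, at -1.29, lay close to the lowest FL B IgM- array. Its other comparisons had overlapping groups. Il4ra A_55_P1966189 stayed between 3.64 and 4.26 on all arrays. Il15ra A_55_P2060707 ranged from 7.28 to 8.23, and its 1 comparison without overlap was tg DP minus wt DP, at -0.15 ± 0.22 (limma adjusted p = 1). On the slide that held both groups, which leaves out tg DP 4, that difference was -0.09. Il15ra A_55_P2041738 also had every tg DP array below every wt DP array. Its difference was -0.24 ± 0.18, which missed the threshold too, and -0.16 on that slide.

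Jak1 and Jak3 are the kinases that the receptor chains bind. Jak1 A_52_P106463 (mm9 chr4:100825094-100825153, minus strand) was -2.00, -2.08 and -2.54 in SP4, -3.07, -2.72 and -3.56 in wt DP, and -3.35, -3.56 and -3.42 in SP8. SP4 lay above both other groups without overlap. SP4 minus SP8 was 1.24 ± 0.61 with an unadjusted p of 0.0568 and a limma adjusted p of 0.968, and 1.18 on the slide with both. With normexp it was 0.72. SP4 minus wt DP was 0.91 ± 0.61 (limma adjusted p = 0.891). wt thymocytes minus fetal liver B cells was 1.06 ± 0.37 (limma adjusted p = 0.257), with FL B IgM+ 21 at -5.68 and not above background. Without that array the difference was 0.76, and with normexp 0.52.

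Jak3 had 2 probes whose tg B differences were unlike in size. They are A_51_P355360 (mm9 chr8:74214085-74214144) and A_55_P2010912 (mm9 chr8:74210801-74210860), both on the plus strand, shown because their estimates for 1 gene were unlike in size.
A_51_P355360 (Jak3): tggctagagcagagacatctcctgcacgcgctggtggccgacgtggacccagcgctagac
A_55_P2010912 (Jak3): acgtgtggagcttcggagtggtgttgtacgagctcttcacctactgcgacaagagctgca

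On A_55_P2010912, tg B gave -1.95 and -2.59 and FL B IgM- 0.01, -0.50 and -0.89, a difference of -1.81 ± 0.73 (limma adjusted p = 0.240), and -1.49 without tg B 23. On A_51_P355360 the same arrays gave -0.26 and -0.02 against 0.05, 0.14 and 0.17, a difference of -0.26 ± 0.26 (limma adjusted p = 0.618). In both cases the groups did not overlap, but the probes put the size of the difference far apart. The interaction on A_55_P2010912 was 2.52 ± 0.95 (limma adjusted p = 0.463), and 2.01 without tg DP 4. On A_51_P355360 it was 0.05. Over the 24 arrays the Jak3 probes correlated at -0.29 (Pearson), the Il4ra probes at -0.21 and the Il15ra probes at 0.08. For Flt3 the 3 pairs gave 0.07, 0.16 and 0.46. These correlations describe 24 arrays that share groups and slides, and carry no test.

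**Figure D4:**
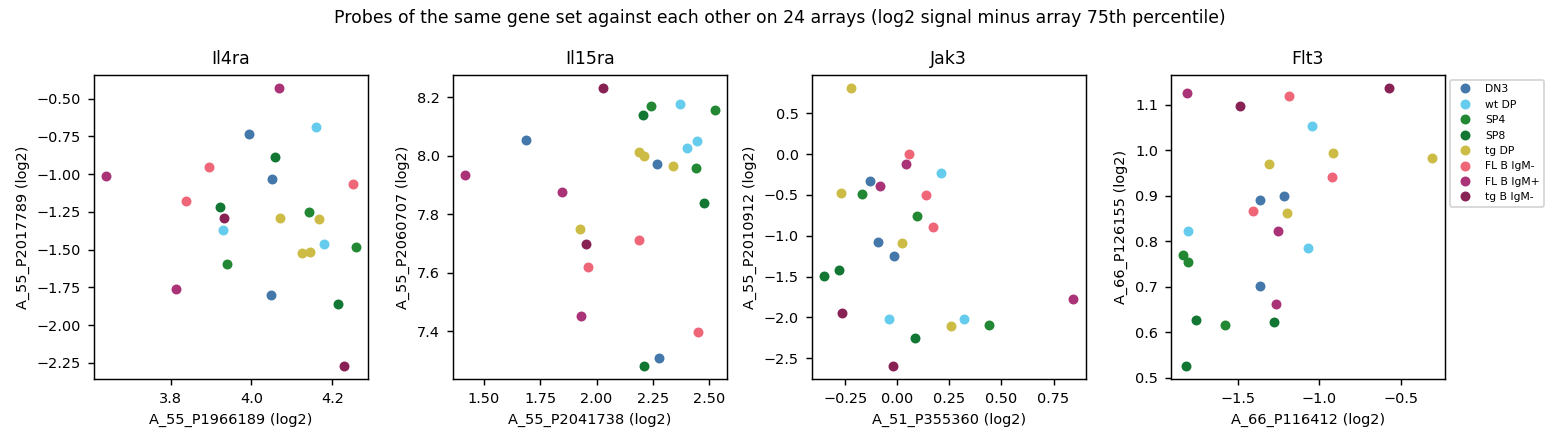
Probes of 1 gene plotted against each other on 24 arrays, coloured by group, for Il4ra, Il15ra, Jak3 and the best correlated Flt3 pair. Axes are log2 signal minus the array's 75th percentile. The Jak3 points fall without a common line (Pearson -0.29), and the Flt3 pair has the highest value at 0.46.

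Flt3 A_66_P126155 (mm9 chr5:148174133-148174192, minus strand) kept a narrow range. SP8 was lowest at 0.62, 0.53 and 0.63, below all wt DP arrays at 0.78, 1.05 and 0.82. SP8 minus wt DP was -0.29 ± 0.15 (limma adjusted p = 1), and SP4 minus wt DP -0.17 ± 0.15 (limma adjusted p = 0.935). With slide as a block these were -0.16 and -0.06. tg B gave the highest mean, from 1.10 and 1.14, against 1.12, 0.94 and 0.87 in FL B IgM-. On A_55_P2055242 (mm9 chr5:148178496-148178555, minus strand), FL B IgM+ minus FL B IgM- was 0.84 ± 0.41 (limma adjusted p = 0.694), and it was 0.40 without FL B IgM+ 21 and 1.3 without FL B IgM+ 20. The arrays of that comparison were -0.22, -1.13 and 0.67 against -1.20, -0.58 and -1.43, which overlap. tg B, at -0.58 and -0.45, lay just above FL B IgM- there, by 0.56 ± 0.46 (limma adjusted p = 0.544). A_66_P116412 (mm9 chr5:148142576-148142635, minus strand) ranged from -1.84 to -0.31, and each group overlapped its neighbours in the order of the means. It had SP4 lowest and SP8 next, and A_66_P126155 had SP8 lowest and SP4 next. Both had tg DP, tg B and FL B IgM- as the 3 highest means, so their orders were much alike. A_55_P2055242 departed from them, with FL B IgM- lowest and FL B IgM+ highest. No order was thus shared by all 3 Flt3 probes.

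Over the 15 probes, 4 had groups that did not overlap in SP4 minus wt DP (Il7r, Il21r and Jak1 higher, Flt3 A_66_P126155 lower), against 15% of all probes. In SP8 minus wt DP there were also 4 (Il7r, Il21r and Il2rb higher, Flt3 A_66_P126155 lower), against 10.7%. In tg B minus FL B IgM- there were 6 against 33.3%, and in tg DP minus wt DP 3 against 6.46%. SP4 minus SP8 gave 2 (10.6%), wt DP minus DN3 gave 2 (11.6%), FL B IgM+ minus FL B IgM- gave 1 (14%), DN3 minus FL B IgM- gave 1 (16.1%) and wt thymocytes minus fetal liver B cells gave 0 (0.325%). Unadjusted p under 0.05 was reached by 2 of 15 in SP4 minus wt DP (6.39% of all probes), by 2 in SP8 minus wt DP (2.28%), by 1 in tg DP minus wt DP (3.15%), by 4 in tg B minus FL B IgM- (16.5%), by 2 in FL B IgM+ minus FL B IgM- (7.33%), by 3 in wt thymocytes minus fetal liver B cells (12%) and by 2 in the interaction (9.21%). In wt DP minus DN3 (2.06%), SP4 minus SP8 (5.17%) and DN3 minus FL B IgM- (2.91%) it was 0 of 15. The median difference of the 15 was -0.21 in tg B minus FL B IgM- against -0.27 for all probes, and -0.11 in SP8 minus wt DP against -0.02.

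**Figure D5:**
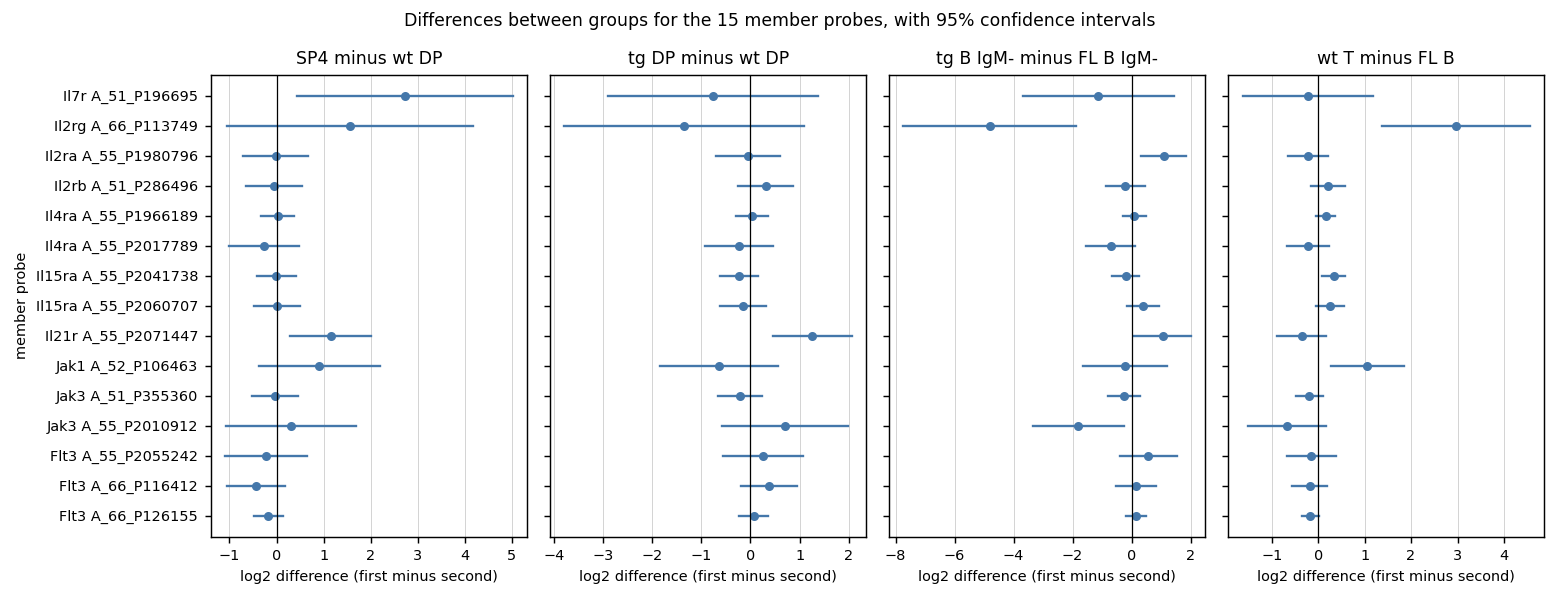
Difference in log2 level (points) with 95% confidence intervals (lines) for the 15 member probes in 4 comparisons, first group minus second. Intervals are not adjusted for the number of probes. Il2rg in tg B minus FL B IgM- (-4.81) and in wt thymocytes minus fetal liver B cells (2.96) lies farthest from 0.

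Other genes of the pathway were taken from a list of 43 ligands, receptors, kinases, STATs, inhibitors, adaptors and targets. Of them 42 were tested on 60 probes, and 0 probes passed in any comparison, in either direction. Unadjusted p under 0.05 was reached by at most 10 of the 60, in tg B minus FL B IgM-, where 16.5% of all probes reached it. The genes described are those with the smallest F test p in their role. Flt3l, the ligand of Flt3, had its highest mean in SP4 on probe A_55_P2145506, where 3 arrays ranged from -2.01 to -0.20, against -3.05 to -2.21 in wt DP. SP4 minus wt DP was 1.78 ± 0.58 (limma adjusted p = 0.608) and SP4 minus SP8 1.76 ± 0.58 (limma adjusted p = 0.758). The other Flt3l probe, A_52_P644690, gave -0.07 and -0.31. The phosphatase gene Ptpn2, which restrains Jak signalling, gave 1.60 ± 0.60 in SP4 minus wt DP on A_66_P116098 (limma adjusted p = 0.680), and 0.45 on its second tested probe, A_55_P2080850.

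Pik3cd, a catalytic subunit of PI3-kinase, gave on A_52_P99848 a difference of 1.47 ± 0.49 in SP8 minus wt DP and of 1.31 ± 0.49 in SP4 minus wt DP, without overlap in either (limma adjusted p = 1 and 0.680). Its other probes gave -0.08 and 0.18 in SP8 minus wt DP, and 0.17 and 0.02 in SP4 minus wt DP. Kit, the receptor for stem cell factor, gave 1.69 ± 0.46 in tg B minus FL B IgM- (limma adjusted p = 0.127). Its tg B arrays were far apart, at -1.03 and 1.58, against -1.54 to -1.30 in FL B IgM-, and without tg B 23 the difference was 0.38. Tyk2, another Janus kinase, also split the 2 tg B arrays, at -1.63 and 2.88, and the difference from FL B IgM- was 2.81 ± 1.03 (limma adjusted p = 0.209), or 0.56 without tg B 23. Bcl2l1, an anti-apoptotic target, had the smallest F test p of the list on A_52_P510877 (limma adjusted p = 0.206), where FL B IgM+ minus FL B IgM- was -1.74 ± 0.68 (limma adjusted p = 0.610). On A_55_P1974877 it was -0.35. Of the 60 probes, 40 had a higher mean in wt thymocytes than in fetal liver B cells, as had 58.5% of all probes, with a median difference of 0.15 against 0.07 for all probes.

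The probes most like each receptor over the 24 arrays were sought among 26066 probes with a symbol. For Il7r they included Atp5l (Pearson 0.72) and 4933405O20Rik (0.72). For Il2rg they were Gnb1 (0.89), 1810030O07Rik (0.87) and Sprr2b (0.86), and the Spearman value of Gnb1 was 0.64. For Il2ra they were Olfr5 (0.80), Vmn2r69 (0.78) and Adamts18 (0.78), and for Il2rb Col22a1 (0.75), Sars (0.74) and Tlx2 (0.74). No other member was among these. The values describe likeness over arrays that share groups and slides, and are the highest of a large search.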

How the data were processed

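RNA of 24 samples was measured on Agilent single-colour arrays. The deposited spot files hold intensity values and 0 or 1 flags (other values) from Feature Extraction 10.7.3.1, corrected for background and spatial trend, per the file headers. The authors' deposited series matrix holds log2 values, each column with a median of 7.93, which served as an alternative. The number of arrays limits the precision.

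From 62976 spots, 3671 controls were dropped, 248 values with a non-uniformity flag were treated as missing, and none was saturated. Repeated spots of a probe were averaged. A level is log2(processed signal), centred on each array's 75th percentile. A probe was tested if at least 1 group had it well above background on all its arrays. limma 3.58.1 (R 4.3.3) fitted the group means over all 24 arrays without a covariate, using lmFit and eBayes, and p-values were adjusted by Benjamini-Hochberg over all 52987 probes. The code was tested on simulated data. For a fold written as "at least", each array of the undetected group took its own signal or the lowest detected signal of that array, whichever was brighter, and the bound ignores the spread between arrays.

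The members, the pathway list, the markers and the comparisons were chosen with earlier results of these data known. The genes named are every member probe, the pathway gene with the smallest F test p in each role, and the 3 probes most like Il7r, Il2rg, Il2ra and Il2rb. Some items that this rule names are not reported here. Coordinates and probe sequences come from the array files, build mm9. Whether a probe lies in a coding or untranslated exon was not analysed here. Alternatives were median and quantile scaling, normexp with an offset of 50, the authors' values, no filter, a filter asking for 4 groups, slide as a fixed or random block, array weights, 1 probe a gene, only the groups compared, averaging of arrays that share a title number, and leaving out each array. Leaving out 3 arrays together was added after seeing the data.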

Additional observations from a re-analysis of the deposited data

Results flagged for a closer look

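In the group of 4 tg DP arrays, 15 member probes were examined for an array far from the others, and chance gives about 1 in 20 groups. Jak1 in tg DP 6 was -2.61, against -4.29 to -4.00 on the other 3 arrays. Il2rg in tg DP 4 was -7.65 and not above background, against -2.45 to -1.78 on the other 3. tg DP 4 lay on another slide than the other 3 and is one of the 3 arrays with the highest values on the first principal component. The part of slide and of the array in these values was not tested.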

How the results depend on the processing

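The number of member probes past the threshold was 0 in 239 of 244 pairs of a comparison and an alternative setting, as in the main analysis, and 1 in the other 5. With slide as a fixed block 1 probe passed in tg B minus FL B IgM- (Il2rg, adjusted p = 0.0367). Leaving out each array gave 0 to 1 for the F test (1 without tg DP 4 and 1 without tg B 22), for tg B minus FL B IgM- (1 without tg B 22, Il21r) and for wt thymocytes minus fetal liver B cells (1 without FL B IgM+ 19, Il2rg). Over all probes the F test made 54 calls, and 34 with quantile scaling, 11 and 26 with slide as a fixed and random block, 137 with array weights, 14 with averaged title numbers, 88 without tg DP 4 and 3818 without tg B 22. tg B minus FL B IgM- made 18, and 11 with quantile scaling, 32 with normexp, 35 with the filter asking for 4 groups, 97 and 65 with slide as a fixed and random block, 50 with 1 probe a gene, 10 without the 3 arrays highest on the first component, 7955 without tg B 22, and 0 with array weights or only the groups compared. wt thymocytes minus fetal liver B cells made 17, and 192 without FL B IgM+ 19.

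Of 571 pairs of 1 of 32 named differences and a setting, 557 kept their direction. The 14 that turned are these, and the cause was not tested. Il7r in tg DP minus wt DP ranged from -1.39 to 0.18 when each array was left out. Il7r in DN3 minus FL B IgM- was 0.12 with normexp and 0.0796 with array weights, and ranged from -1.22 to 0.69 with an array left out (above 0 without DN3 9, FL B IgM- 17 or FL B IgM- 18). Il7r in wt thymocytes minus fetal liver B cells was 0.0738 with normexp and 0.13 with array weights, and ranged from -0.73 to 0.28 (above 0 without DN3 9 or FL B IgM+ 19). Il2rg in tg DP minus wt DP ranged from -1.93 to 0.0218, the latter without tg DP 4 and also without the 3 arrays highest on the first component. Il2rg in wt thymocytes minus fetal liver B cells was -3.39 with slide as a fixed block. Jak3 A_51_P355360 in tg B minus FL B IgM- was 0.0359 with median scaling. No paired analysis was possible because the groups share no replicate numbers.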
